A study of Mus musculus with 6 samples.

Results

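The genes described here were 40 genes of DNA replication licensing and of the replication fork, measured in leukemia cells that had been exposed to cytarabine in the mouse. They were chosen by symbol from a written list, and all 40 were found among the 23284 genes of the expression tables. RNA was taken from C1498, a murine line of acute myeloid leukemia (AML) that had been given EGFP by a retrovirus, kept as 1 clone and grown in wild-type C57BL/6 J mice, by the general methods females of 8 to 10 weeks. The cells were sorted as GFP+ CD49b+ cells from the marrow of femur, tibia and pelvis on day 21 after transfer, from 3 mice that had received cytarabine and 3 mice that had not. The sample records name the latter group PBS in one field and untreated in another, and it is called control here. Each mouse gave 1 library, named cytarabine 1 to 3 and control 1 to 3. All groups thus carried the same transplanted line, and neither group held normal marrow or cells that had never been in a mouse.

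A cell may copy each stretch of its genome only once per division. In the G1 phase the origin recognition complex, CDC6 and CDT1 load the MCM2-7 helicase onto origins, a step called licensing, and geminin blocks CDT1 afterwards. Cyclin E with its kinase, together with MCM10, CDC45 and the GINS complex, then turns the loaded helicase into a moving fork, where primase, the polymerases, the PCNA clamp and its loader, the flap nuclease, the ligase and the single-strand binding protein RPA make DNA. Many of these genes are transcribed under E2F factors as cells pass from G1 into S phase, and cytarabine is a nucleoside analogue that is built into new DNA and hinders its extension.

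Values were FPKM, in which fragments are divided by exon length and by the size of the library, so that levels can be compared between genes per length. Depth was not given and was inferred from the steps between low values as 11420000 to 18790000 reads per library. With each member taken at its longest transcript, the fewest reads inferred were 185, for Ccne2 in control 2. Shorter transcripts would give fewer reads. Transcripts of other tissues were present in all libraries and unequal among them. The summed level of 13 colon epithelium markers reached 3531 and 3935 FPKM in cytarabine 2 and 3, reached 1729 FPKM in control 1 as well, and lay between 22.1 and 278 FPKM elsewhere (cytarabine 1, control 2 and 3). The sum of 10 heart muscle markers ran from 7.66 to 709.6 FPKM with cytarabine and from 54.9 to 2613 FPKM in controls, and that of 8 neutrophil markers from 189 to 1433 FPKM with cytarabine and from 1438 to 2043 FPKM in controls. The 5 early myeloid markers (Mpo, Elane and others) summed to 268 FPKM in cytarabine 1 and to at most 35.8 FPKM in the other libraries, and 9 erythroid markers to 239 FPKM in cytarabine 1 and to at most 118 FPKM in the others. The T cell receptor chains Cd3e and Cd3g lay between 129.6 and 652 FPKM in every library, while Cd4, Cd8a, Cd5 and Cd247 stayed under 1 FPKM. Cd3d was at 7.66 to 9.99 FPKM with cytarabine and at 3.61 to 4.47 FPKM in controls. The 6 NK cell markers summed to 8.11 to 17.2 FPKM with cytarabine and to 3.78 to 6.47 FPKM in controls, with Ncr1, Eomes and Tbx21 under 1 FPKM throughout. Itga2, which encodes the CD49b used for sorting, had 8.12, 7.79 and 7.88 FPKM with cytarabine and 10.6, 13.3 and 12.8 FPKM in controls. In sorted bulk RNA, fewer cells of a kind and less RNA per cell cannot be told apart, and the part of these transcripts in the results below was not tested.

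Of the 40 replication genes, 9 were higher with cytarabine at an unadjusted p under 0.05 and none was lower. The 9 were Orc6, Cdc6, Gmnn, Rfc1, Rfc3, Rpa1, Ccne1, Ccne2 and Dtl, a share of 22.5% of the members. Among all 11703 genes tested, 890 (7.6%) were higher and 1148 (9.81%) were lower by the same rule. In 10 members, the 9 and Mcm4, each cytarabine library exceeded each control library, a pattern that 10.9% of all genes tested showed. In no member did each cytarabine library fall below each control library, which 12.9% of all genes tested did. The log2 fold changes, cytarabine minus control, ran from -0.29 for Gins1 to 0.70 for Ccne2, and 30 of the 40 were above 0. Their median was 0.12, and that of all genes tested was -0.0015.

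No gene of the table passed the Benjamini-Hochberg adjustment in limma at 0.05 (0% of the genes tested), although 2038 genes did so unadjusted. The smallest adjusted p was 0.0551 among all genes and 0.136 among the members, so each of the 9 differences below is past the unadjusted threshold only, and the p-values printed below are adjusted over all genes tested. The number of members past that threshold also leaned on single mice. Without cytarabine 1, 6 members (15%) were higher and 2 (5%) were lower, Orc2 and Gins1, beside 17.3% and 17.5% of all genes tested. The share of members higher was then no larger than that of all genes, and the median of the members was 0.016. Without control 1 the median was 0.050, with 6 members higher (15%, beside 8.49% of all genes tested). Without cytarabine 3 the median was 0.18, with 10 members higher (25%, beside 5.43%).

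Cytarabine 1 and control 1 stood at the ends for most members. Cytarabine 1 was the highest of the 6 libraries for 32 of the 40 genes (80.0%) and for 19.3% of all genes tested. Control 1 was the lowest for 26 of them (65.0%) and for 16.3% of all genes tested. They also lay apart from the rest of their groups in transcripts of other cells, cytarabine 1 with less colon and with the early myeloid and erythroid levels given above, and control 1 with more colon and heart. The neutrophil markers summed to 1433 FPKM in cytarabine 1 and to 199 and 189 FPKM in cytarabine 2 and 3, beside 1438 to 2043 FPKM in controls. The differences were also taken on each side of the colon division, cytarabine 1 against control 2 and 3 where colon transcript was lower, and cytarabine 2 and 3 against control 1 where it was higher. Colon transcript remained unequal on each side, at 278 FPKM against 22.1 and 22.3 FPKM on the low side and at 3531 and 3935 FPKM against 1729 FPKM on the high side. Heart, neutrophil and early myeloid transcripts were not matched by this division. Because the single mice of the sides are cytarabine 1, high for most members, and control 1, low for most, a positive sign on both sides adds little to the counts above. The sign was positive on both sides for 30 of 40 members (75%) and negative on both for 3 (7.5%), beside 35.6% and 32.7% of all genes tested. For the 9 genes past the threshold, a positive sign on both sides was fixed in advance, because each cytarabine library exceeded each control library. Their differences on the log2 scale lay between 0.19 (Rpa1) and 0.84 (Ccne2) where colon transcript was low. Where it was high, they lay between 0.28 (Rfc1) and 0.68 (Ccne2). The median of the 40 was 0.23 on the low side and 0.18 on the high side.

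**Figure D1:**
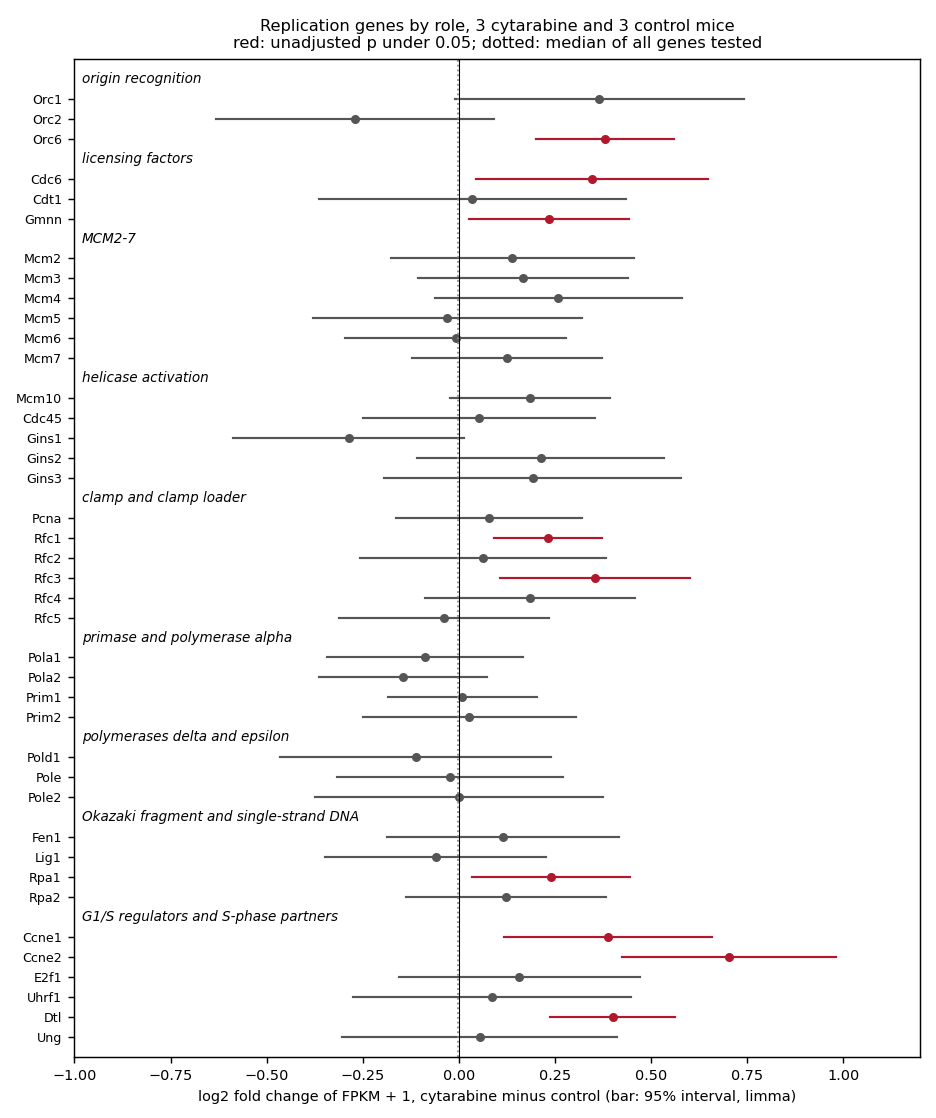
Log2 fold change of FPKM + 1, cytarabine minus control, for the 40 replication genes in rows grouped by role (3 mice against 3, points with 95% intervals from limma). Red marks the 9 genes at an unadjusted p under 0.05, all to the right of 0, and the dotted line is the median of all genes tested at -0.0015.

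Promoters are shown for 4 of the genes that were higher and for a pair of MCM genes that did not pass the test, because E2F factors act on many genes of this kind and the letters of their site can be searched. The windows come from RefSeq on GRCm38.p6, each 200 bases long on the strand of its gene, with 170 bases before the annotated start and 30 from it on. Capitals mark matches to the E2F site, searched on both strands as TTTCGCGC, TTTGGCGC, TTTCCCGC or TTTGGCGG, spellings that can overlap one another. Their positions are chr1:191575515-191575714 on the minus strand (Dtl), chr5:151651179-151651378 on the minus strand (Rfc3), chr11:98907981-98908180 on the plus strand (Cdc6), chr8:85299462-85299661 on the plus strand (Orc6), chr8:75109339-75109538 on the plus strand (Mcm5) and chr1:128359676-128359875 on the minus strand (Mcm6).
Dtl: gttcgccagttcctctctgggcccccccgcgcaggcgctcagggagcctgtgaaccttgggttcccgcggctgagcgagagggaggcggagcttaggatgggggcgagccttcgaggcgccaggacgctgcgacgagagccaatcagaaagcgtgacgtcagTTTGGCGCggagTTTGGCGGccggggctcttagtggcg
Rfc3: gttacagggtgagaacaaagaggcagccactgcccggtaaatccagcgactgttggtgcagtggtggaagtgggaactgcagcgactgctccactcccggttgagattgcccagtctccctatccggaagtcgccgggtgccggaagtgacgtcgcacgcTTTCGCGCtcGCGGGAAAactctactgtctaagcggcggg
Cdc6: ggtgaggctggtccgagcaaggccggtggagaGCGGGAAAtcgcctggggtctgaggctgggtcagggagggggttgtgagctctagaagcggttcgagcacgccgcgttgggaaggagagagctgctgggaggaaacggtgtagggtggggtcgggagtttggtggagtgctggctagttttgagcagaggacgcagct
Orc6: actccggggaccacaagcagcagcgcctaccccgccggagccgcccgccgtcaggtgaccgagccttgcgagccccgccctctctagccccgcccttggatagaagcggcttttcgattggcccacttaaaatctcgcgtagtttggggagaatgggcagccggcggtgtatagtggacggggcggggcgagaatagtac
Mcm5: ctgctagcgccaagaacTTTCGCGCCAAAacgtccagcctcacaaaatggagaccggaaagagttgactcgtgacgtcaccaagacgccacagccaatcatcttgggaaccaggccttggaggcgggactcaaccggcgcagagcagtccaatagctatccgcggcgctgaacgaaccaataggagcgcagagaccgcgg
Mcm6: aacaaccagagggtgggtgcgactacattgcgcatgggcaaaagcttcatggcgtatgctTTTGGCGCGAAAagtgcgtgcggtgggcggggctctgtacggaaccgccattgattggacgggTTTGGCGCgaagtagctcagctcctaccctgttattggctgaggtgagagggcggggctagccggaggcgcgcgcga
Dtl held a match 8 bases before its start and another 4 bases after it, and Rfc3 held one 10 bases before its start and one at the start. Mcm6 held matches 110, 106 and 47 bases before its start. Cdc6 held a match 138 bases before its RefSeq start. The GENCODE annotation starts Cdc6 farther upstream, at 98907801, so by that annotation this whole window lies inside the gene. Orc6 held none, which says only that these letters are not in this window. Of the 40 members, 32 had at least 1 promoter of 300 bases in the RefSeq table, and 17 of these (53.1%) held an E2F site in at least 1 of their listed promoters, against 730 of 27025 genes with a promoter in the table (2.7%). The share was 4 of 7 (57.1%) for the genes that were higher and 13 of 25 (52.0%) for the members that did not pass. A match is a description of sequence, not evidence of binding.

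The origin recognition complex marks the places where licensing starts. Orc6, a subunit of that complex that helps to bring in MCM helicases (chromosome 8, 85299632 to 85308278, plus strand, GRCm38), had 84.9, 77.4 and 75.5 FPKM in cytarabine 1 to 3 and 57.2, 61.1 and 63.6 FPKM in control 1 to 3. The groups did not overlap, and each of the 3 treated mice lay above each control. The log2 fold change was 0.38 ± 0.07 (SE; limma adjusted p = 0.141), and Orc6 kept an unadjusted p under 0.05 in all 18 alternative settings. Exons of Orc6 overlap those of Vps35 on the other strand over 6.93% of their length. The library kit kept strand while the option used in counting was not stated, so reads of such a pair may not have been told apart, here and for the overlaps given below. Orc1, an ATPase subunit, had 17.1, 12.7 and 14.7 FPKM with cytarabine and 9.67, 10.9 and 13.3 FPKM in controls. Its groups overlapped through control 3, and its difference of 0.37 ± 0.15 (SE) did not pass the test (adjusted p = 0.294). Orc2, a core subunit, had 88.5, 61.5 and 73.7 FPKM with cytarabine and 89.2, 81.2 and 98.1 FPKM in controls. Its difference pointed the other way, at -0.27 ± 0.15 (SE; adjusted p = 0.37) and overlapping groups. Without cytarabine 1 the difference of Orc2 was -0.40 and passed the unadjusted threshold, and its exons overlap those of Nif3l1 on the other strand over 29.8%.

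Of the 3 genes that load the helicase and limit its loading, 2 were higher. Cdc6, the ATPase that acts with the origin recognition complex to load MCM2-7 (chromosome 11, 98907801 to 98923940, plus strand), had 42.1, 34.3 and 32.7 FPKM with cytarabine and 25.6, 28.0 and 31.4 FPKM in controls. Cytarabine 1 stood highest, and cytarabine 3 lay just above control 3. The difference was 0.35 ± 0.12 (SE; limma adjusted p = 0.246), and it passed in 13 of 18 alternatives. Gmnn encodes geminin, the inhibitor of CDT1 (chromosome 13, 24751845 to 24761923, minus strand). It had 139, 133 and 122 FPKM with cytarabine and 101, 115 and 118 FPKM in controls. The difference was 0.23 ± 0.08 (SE; limma adjusted p = 0.252), past the threshold in 11 of 18 alternatives. Cdt1 itself, the loader that geminin blocks, had 117, 113 and 90.2 FPKM with cytarabine and 83.7, 113 and 116 FPKM in controls. These values interleaved, and the difference was 0.034 with a 95% interval from -0.36 to 0.43, wide enough to hold a change as large as that of Cdc6 in either direction. Its sign turned when single libraries were left out. Whether Cdc6 and Gmnn differed from Cdt1 in their response was not tested.

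None of the 6 genes of the MCM2-7 ring, the helicase that unwinds DNA ahead of the polymerases, passed the test. Mcm4 had 212, 161 and 159 FPKM with cytarabine and 136, 147 and 158 FPKM in controls. Its groups did not overlap, but cytarabine 3 and control 3 were nearly level, and the difference of 0.26 ± 0.13 (SE) did not pass (adjusted p = 0.349). Mcm2 had 204, 181 and 161 FPKM with cytarabine and 143, 171 and 183 FPKM in controls, with a difference of 0.14 ± 0.13 (SE; adjusted p = 0.548). Mcm5 had 136, 107 and 99.3 FPKM with cytarabine and 101, 122 and 123 FPKM in controls. Cytarabine 1 lay above all controls, cytarabine 2 among them and cytarabine 3 below them, and the difference of -0.031 (95% interval -0.38 to 0.32) turned sign under 4 of the alternative scalings and library choices and under 4 of the 6 omissions of a library. The remaining subunits had differences of 0.17 (Mcm3), -0.0087 (Mcm6) and 0.13 (Mcm7). The levels of the 6 transcripts differed per length. Over the 6 libraries, Mcm6 averaged 267 FPKM, Mcm7 246 FPKM, Mcm2 174 FPKM, Mcm4 162 FPKM, Mcm3 162 FPKM and Mcm5 115 FPKM.

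The factors that switch the loaded helicase on gave no call in either direction. Cdc45, which joins MCM2-7 and GINS in the active helicase, had 75.4, 65.4 and 54.6 FPKM with cytarabine and 62.2, 59.8 and 64.9 FPKM in controls. Its treated mice spread on both sides of the controls, and the difference of 0.052 (95% interval -0.25 to 0.35) turned sign under 3 alternatives. Mcm10, which helps the helicase to start, differed by 0.19 (adjusted p = 0.319). Of the GINS subunits, Gins2 and Gins3 had differences of 0.21 and 0.19, whereas Gins1 had 37.5, 28.6 and 29.6 FPKM with cytarabine and 36.3, 38.1 and 42.3 FPKM in controls. For Gins1 the treated mice lay below the controls except cytarabine 1, and the difference was -0.29 ± 0.12 (SE; adjusted p = 0.298). Without cytarabine 1 it was -0.41 and passed the unadjusted threshold. Exons of Gins2 overlap those of Gse1 on the other strand over 67.3%, so its value is uncertain.

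Of the sliding clamp and the 5 subunits of its loader, 2 genes were higher, both of the loader. Pcna, the clamp that tethers polymerases to DNA, was the most abundant of the 40 transcripts, with 596, 517 and 508 FPKM with cytarabine and 461, 523 and 552 FPKM in controls. These values interleaved, and the difference was 0.078 ± 0.10 (SE; adjusted p = 0.661). Rfc1, the large subunit of the clamp loader (chromosome 5, 65261850 to 65335670, minus strand), had 44.2, 43.1 and 43.3 FPKM with cytarabine and 35.4, 37.2 and 38.3 FPKM in controls. The 3 treated mice were nearly level, and the difference was 0.23 ± 0.06 (SE; limma adjusted p = 0.167), past the threshold in 17 of 18 alternatives. Rfc3, a small subunit (chromosome 5, 151642756 to 151651242, minus strand), had 92.4, 88.0 and 76.7 FPKM with cytarabine and 60.2, 69.8 and 70.4 FPKM in controls. No treated mouse fell to the level of a control, and the difference was 0.35 ± 0.10 (SE; limma adjusted p = 0.192), also past the threshold in 17 of 18 alternatives. The other small subunits did not pass, with differences of 0.063 (Rfc2), 0.18 (Rfc4) and -0.039 (Rfc5).

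The enzymes that make DNA showed no member past the threshold. The 4 genes of primase and polymerase alpha, which lay down the starting primers, had differences between -0.14 (Pola2) and 0.027 (Prim2). Pola1, the catalytic subunit of polymerase alpha, had 21.4, 16.9 and 19.6 FPKM with cytarabine and 19.6, 20.0 and 22.1 FPKM in controls, a difference of -0.089 (95% interval -0.34 to 0.17). Pold1, the catalytic subunit of the lagging-strand polymerase delta, had 46.9, 37.8 and 34.9 FPKM with cytarabine and 37.2, 43.9 and 48.1 FPKM in controls. For Pold1 the ranges of the groups overlapped widely, and the difference was -0.11 (95% interval -0.46 to 0.24). Pole, the catalytic subunit of the leading-strand polymerase epsilon, had 23.9, 20.7 and 18.1 FPKM with cytarabine and 19.4, 21.0 and 23.0 FPKM in controls, a difference of -0.023 (95% interval -0.32 to 0.27). The signs of Pola1, Pold1 and Pole each turned under at least 1 alternative. Pole2 differed by 0.00047 and Prim1 by 0.0089.

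Of the genes that join Okazaki fragments and coat single-stranded DNA, Rpa1 was higher. Rpa1, the large subunit of the single-strand binding protein RPA (chromosome 11, 75298166 to 75348324, minus strand), had 87.3, 88.2 and 84.1 FPKM with cytarabine and 67.1, 71.5 and 81.5 FPKM in controls. The treated mice were close together, and control 3 lay just below them. The difference was 0.24 ± 0.08 (SE; limma adjusted p = 0.239), and it was past the threshold in 10 of 18 alternatives. Fen1, the flap nuclease, had 76.4, 59.5 and 57.4 FPKM with cytarabine and 55.0, 60.5 and 61.5 FPKM in controls. Only cytarabine 1 lay above the controls, the difference was 0.12 ± 0.12 (SE; adjusted p = 0.603), and 84.2% of the exon length of Fen1 is shared with Tmem258 and Gm10143 on the other strand. Lig1, the ligase that seals the fragments, had 56.8, 50.04 and 46.5 FPKM with cytarabine and 46.3, 55.7 and 58.1 FPKM in controls, a difference of -0.060 ± 0.12 (SE; adjusted p = 0.782). Rpa2 differed by 0.12.

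The regulators of entry into S phase and their partners held 3 of the 9 genes, and both cyclin E genes were among them. Ccne2, which encodes cyclin E2 (chromosome 4, 11191351 to 11204779, plus strand), had 11.2, 9.41 and 9.18 FPKM with cytarabine and 5.43, 5.35 and 6.37 FPKM in controls. It was the least abundant of the 40 transcripts and had the highest fold change among them. The lowest treated mouse lay above the highest control, and the difference was 0.70 ± 0.11 (SE; limma adjusted p = 0.136), past the threshold in all 18 alternatives. The fewest reads behind this value were an inferred 185 in control 2, and 17.4% of the exon length of Ccne2 is shared with Ints8 on the other strand. Ccne1, which encodes cyclin E1 (chromosome 7, 38097984 to 38107534, minus strand), had 53.2, 51.1 and 44.5 FPKM with cytarabine and 33.0, 39.5 and 40.6 FPKM in controls. The difference was 0.39 ± 0.11 (SE; limma adjusted p = 0.193), past the threshold in 17 of 18. Dtl, the receptor by which a CUL4 ubiquitin ligase recognises CDT1 at PCNA on DNA (chromosome 1, 191537356 to 191575544, minus strand), had 43.3, 41.5 and 39.5 FPKM with cytarabine and 29.7, 32.6 and 31.3 FPKM in controls. The gap between the groups was wider than the spread within either, and the difference was 0.40 ± 0.07 (SE; limma adjusted p = 0.136), past the threshold in all 18 alternatives.

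The other genes of this role did not pass. E2f1, a transcription factor of the G1/S transition, had 50.6, 46.5 and 37.8 FPKM with cytarabine and 36.0, 41.7 and 42.5 FPKM in controls, a difference of 0.16 ± 0.13 (SE; adjusted p = 0.503). Uhrf1, which carries DNA methylation through replication, had 212, 157 and 166 FPKM with cytarabine and 144, 176 and 182 FPKM in controls, a difference of 0.085 ± 0.15 (SE; adjusted p = 0.753). In both genes cytarabine 1 was the highest library, and the groups overlapped through the other mice. Ung, which removes uracil from DNA, differed by 0.054.

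**Figure D2:**
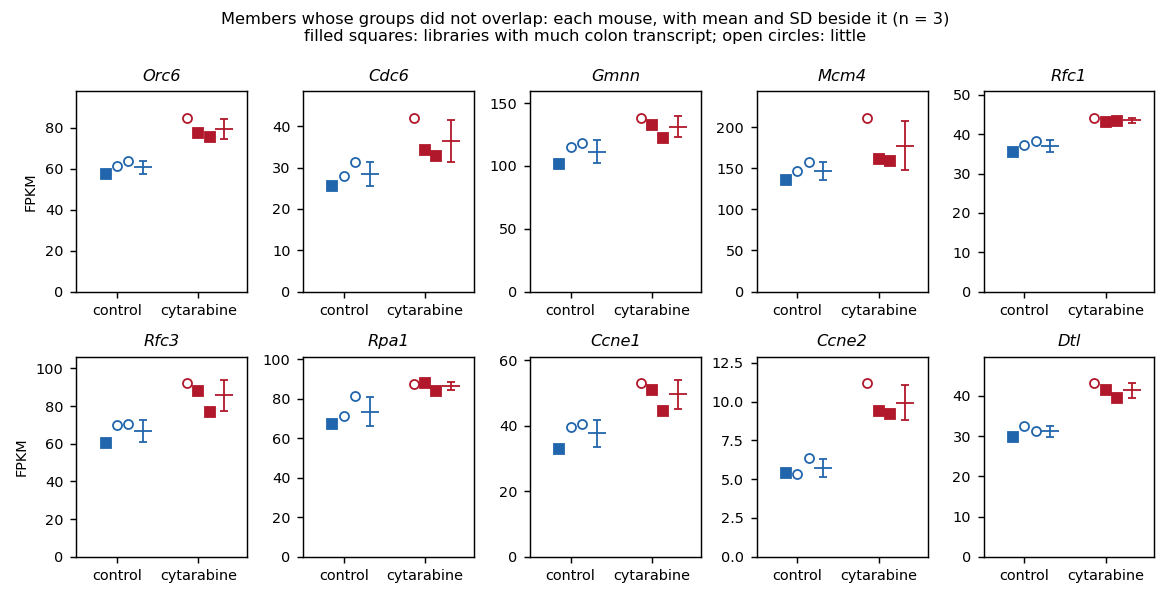
FPKM of the 10 replication genes whose groups did not overlap, 1 point per mouse (blue, 3 controls; red, 3 cytarabine), with the mean and SD beside them and the vertical axis from 0. Squares are libraries with much colon transcript and circles those with little, and Ccne2, Dtl and Orc6 show a clear gap between the groups while Mcm4 and Cdc6 nearly touch.

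**Figure D3:**
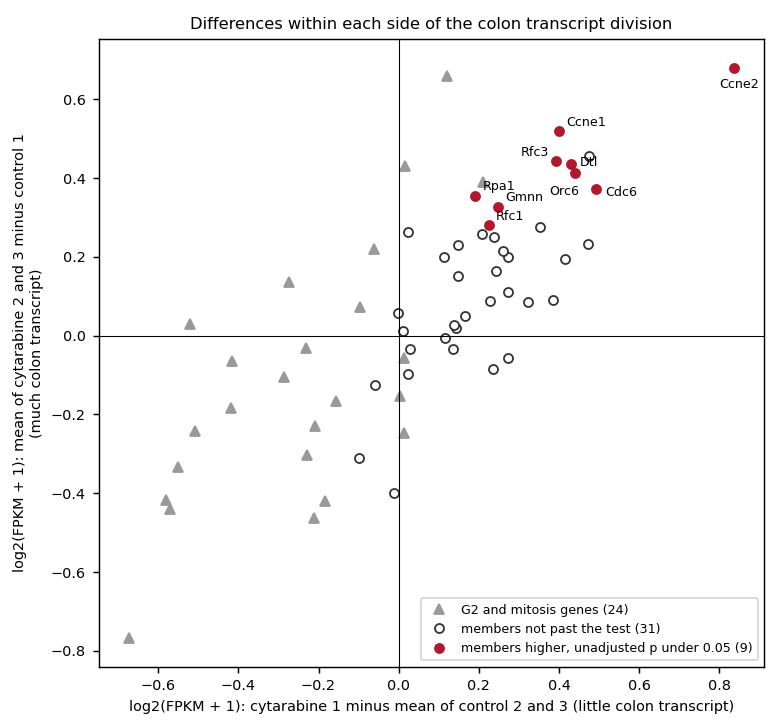
Difference in log2(FPKM + 1) between cytarabine and control libraries with little colon transcript (horizontal, cytarabine 1 against 2 controls) and with much (vertical, 2 treated mice against control 1), 1 point per gene. Above 0 on both axes lie 30 of all 40 replication genes (75%), beside 35.6% of all genes tested. They include the 9 past the threshold (red), whose groups did not overlap, which fixed their sign on both axes. Below 0 on both lie 14 of 24 genes of G2 and mitosis (grey, 58.3%), beside 32.7% of all genes tested.

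A list of 38 further replication genes, of which 37 were measured and tested, included calls in both directions. Its median log2 fold change was -0.028, 3 genes were higher (8.11%) and 4 were lower (10.8%), beside 7.6% and 9.81% of all genes tested. Whether the lists differed was not tested. The higher genes were Clspn, the claspin adaptor of the fork checkpoint (0.31, adjusted p = 0.189), Rpa3, the small RPA subunit (0.23, adjusted p = 0.231), and Dscc1, of the alternative clamp loader (0.23, adjusted p = 0.285). The lower genes were Pold2 and Pold4, accessory subunits of polymerase delta (-0.51, adjusted p = 0.208, and -0.23, adjusted p = 0.269), Chtf8, also of the alternative clamp loader (-0.31, adjusted p = 0.217), and Orc3 (-0.24, adjusted p = 0.268). Pold2 averaged 61.8 ± 11.96 FPKM with cytarabine and 87.7 ± 9.60 FPKM in controls (SD, n = 3 each). Both polymerase delta subunits named and Pold1 of the list above had negative differences, of which that of Pold1 did not pass.

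Among 10 genes of nucleotide supply, 3 were higher (30%) and 1 was lower (10%), beside 7.6% and 9.81% of all genes tested, with a median of 0.13. Rrm2, the regulated subunit of ribonucleotide reductase, averaged 266 ± 18.6 FPKM with cytarabine and 190.3 ± 23.1 FPKM in controls (SD, n = 3 each), a log2 difference of 0.49 (limma adjusted p = 0.155). Dck, the kinase that activates deoxycytidine and cytarabine, differed by 0.33 (adjusted p = 0.183) and Samhd1, which cleaves deoxynucleoside triphosphates and the active form of cytarabine, by 0.24 (adjusted p = 0.233). Dctd, which deaminates deoxycytidylate, differed by -0.53 (adjusted p = 0.203).

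Of the E2F and RB genes, 23 were tested, with a median of 0.0079. Only 1 was higher (4.35%) and 1 was lower (4.35%), beside 7.6% and 9.81% of all genes tested. The higher gene was E2f2 (0.32, adjusted p = 0.206), and the lower was the CDK inhibitor Cdkn2d (-0.28, adjusted p = 0.19). This list holds the kinases, inhibitors and pocket proteins that govern the G1/S step.

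Of 24 genes of G2 and mitosis, 12 were lower (50%) and none was higher, beside 9.81% and 7.6% of all genes tested, with a median of -0.25. The count of lower genes moved with the libraries used. It was 7 (29.2%) without cytarabine 2, 6 (25%) without cytarabine 3 and 5 (20.8%) without control 2 or without control 3. In these fits 5% to 5.69% of all genes tested were lower. Without cytarabine 1 the count was 13 (54.2%) and without control 1 it was 14 (58.3%), beside 17.5% and 9.43% of all genes tested. With colon and heart scores as covariates it was 4 (16.7%, beside 2.26% of all genes tested), with a median of -0.081. The medians on the sides with little and much colon transcript were -0.22 and -0.16. The 12 lower genes were led by Plk1, the mitotic kinase (-0.58, limma adjusted p = 0.149), and Ube2c, the ubiquitin-conjugating enzyme of the anaphase-promoting complex (-0.87, limma adjusted p = 0.151). Next were the phosphatase Cdc25b (-0.46, limma adjusted p = 0.167) and the kinetochore protein Cenpf (-0.59, limma adjusted p = 0.173). Plk1 averaged 25.9 ± 2.49 FPKM with cytarabine and 39.5 ± 4.72 FPKM in controls (SD, n = 3 each).

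**Figure D4:**
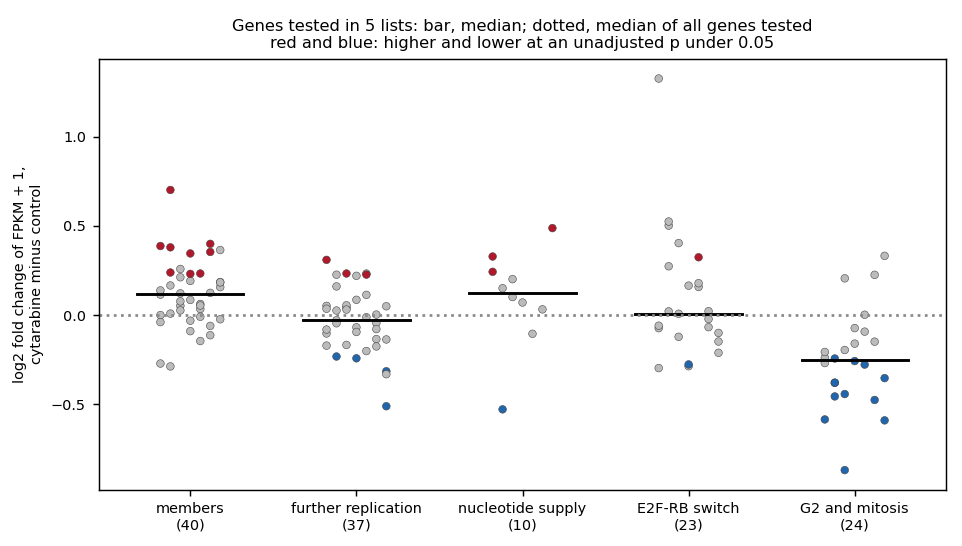
Log2 fold change of FPKM + 1, cytarabine minus control, for each gene tested in 5 lists (1 point per gene; bar, median of the list; dotted line, median of all genes tested). Red and blue mark genes higher and lower at an unadjusted p under 0.05, and the medians are 0.12 for the 40 replication genes, -0.028 for the further replication genes and -0.25 for G2 and mitosis.

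Set beside each other within a library, the replication genes and the genes of G2 and mitosis were farther apart with cytarabine. The mean log2(FPKM + 1) of the 40 genes was 6.19, 5.97 and 5.89 in cytarabine 1 to 3 and 5.77, 5.92 and 6.0 in control 1 to 3, so that the groups overlapped on that mean alone. The mean of the 24 genes was 5.15, 5.05 and 4.95 with cytarabine and 5.11, 5.38 and 5.39 in controls. The first minus the second was 1.05, 0.92 and 0.94 with cytarabine and 0.66, 0.53 and 0.61 in controls, or 0.97 ± 0.07 against 0.60 ± 0.06 (SD, n = 3 each), given as a description without a test. The promoters of both lists were searched for the same letters. Counted by gene, the E2F site was in promoters of 1 of 19 G2 and mitosis genes (5.3%), and the CHR element, searched as TTTGAA on both strands, was in those of 12 of them (63.2%), of 4 of 32 replication genes (12.5%) and of 20.2% of all genes with a promoter in the table. The CCAAT box, searched as CCAAT on both strands, was found for 84.2%, 62.5% and 41.1% of the same sets of genes.

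**Figure D5:**
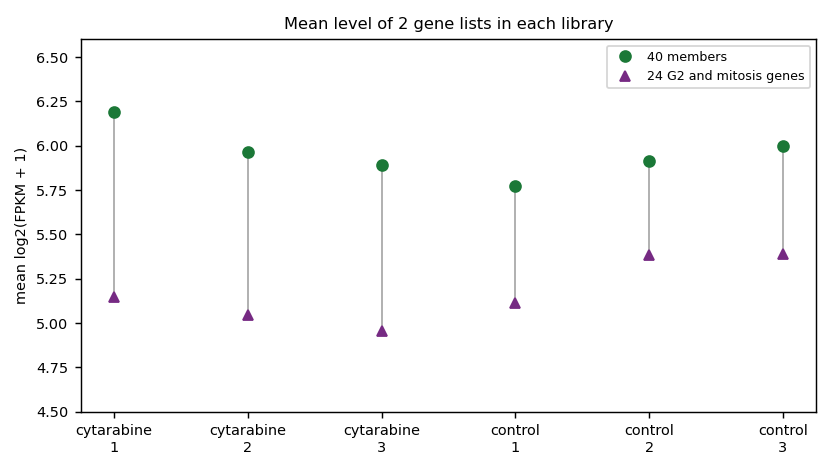
Mean log2(FPKM + 1) of the 40 replication genes (green circles) and of 24 genes of G2 and mitosis (purple triangles) in each of the 6 libraries, joined by a line, with a vertical axis that does not start at 0. The gap is 0.92 to 1.05 in the 3 cytarabine libraries and 0.53 to 0.66 in the 3 controls.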

How the data were processed

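RNA from 6 libraries, 1 mouse each, was sequenced by the authors, mapped to mm10 with TopHat2 2.0.13, Bowtie2 2.2.3 and SAMtools 0.1.19 and quantified with Cufflinks 2.2.1. The deposited values are FPKM per gene, and the annotation and strand option are not given in the sources used here. From these, log2(FPKM + 1) was computed for the 11703 genes whose average over the libraries was 1 FPKM or more, and groups were compared two-sided with limma 3.58.1 in R 4.3.3 (lmFit, then eBayes with its trend option), with p-values adjusted by Benjamini-Hochberg. The pseudocount understates changes of low genes. The step was also run on simulated data with independent noise for each gene. The changes planted there were larger than those of the members, so that run says nothing on differences of this size. Reads were inferred from FPKM steps of genes with 1 transcript, assuming fragments of 200 bases. Reads behind a member were computed from its longest transcript. Positions are from GENCODE vM21 on GRCm38.

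The members, lists and motifs were chosen with earlier results of these data known. Values per library are given for 19 anchor genes and for members past the threshold or without overlap, and for Orc2 and Gins1, chosen after their values were seen. Of other lists, up to 4 genes in each direction with the smallest p are named. Alternatives were another pseudocount, other filters, rescaling, quantile normalization, other eBayes settings, a replicate block, tissue scores as covariates, each side of the colon division and leaving out each library.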

Additional observations from a re-analysis of the deposited data

How the results depend on the processing

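All 18 alternatives kept the direction of the 9 genes that were higher, but this was largely fixed in advance. Their groups did not overlap, so fits on fewer libraries could not turn the sign. Other filters, other eBayes settings and the block left the fold change itself unchanged. Orc6, Ccne2 and Dtl were past the threshold in 18, Rfc1, Rfc3 and Ccne1 in 17, Cdc6 in 13, Gmnn in 11 and Rpa1 in 10. Against 9 members higher (22.5%, beside 7.6% of all genes tested), the replicate block left 4 (Orc6, Rfc1, Ccne2 and Dtl), 10% beside 4.09%. Leaving out 1 library gave 6 to 10, or 15% to 25%, beside 5.08% to 17.3% of all genes tested. The 17.3% is without cytarabine 1, where 15% of members were higher. Median-of-ratios factors gave 13 members higher (32.5%, beside 9.5%), and tissue scores as covariates gave 7 (17.5%, beside 2.53%). With little colon transcript, where the treated group is cytarabine 1 alone, the median of the members was 0.23. Against 0 members lower, median-of-ratios factors and quantile normalization each gave 1 (Gins1), 2.5% beside 10.5% and 10.4% of all genes tested. Gins1 was -0.31 with much colon transcript. Leaving out 1 library gave 0 to 2 members lower, or 0% to 5%, beside 5% to 17.5%. Against 2038 genes called, the block gave 994, tissue scores as covariates 561, little colon transcript 1241, and leaving out 1 library 1179 to 4075, where 4075 is without cytarabine 1. Further replication genes lower (4, 10.8% beside 9.81% of all genes tested) were 0 with the block (beside 4.4%) and 0 with covariates (beside 2.26%). Leaving out 1 library gave 0 to 12 lower, beside 5% to 17.5%, where 12 (32.4%, beside 17.5%) is without cytarabine 1. Those higher (3, 8.11% beside 7.6%) were 7 with median-of-ratios factors (18.9%, beside 9.5%). They were 0 with the block (beside 4.09%) and 1 with covariates (2.7%, beside 2.53%). With 1 library left out, 1 to 3 were higher (2.7% to 8.11%, beside 5.08% to 17.3%). The median of the further replication genes moved from -0.028 to 0.11 with covariates and 0.089 with little colon transcript. Same-numbered mice did not deviate together (correlations -0.71, -0.25 and -0.59), so the block rests on a number only. The numbers follow the source names of the samples, while the sample titles number the mice otherwise, and nothing ties same-numbered mice together. The causes of the shifts in these counts were not tested, and some of the fits also had fewer libraries.

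Signs turned for genes that were not called. Mcm5 was 0.0018 with median-of-ratios factors, 0.15 with covariates, 0.14 and 0.020 with little and much colon transcript, and -0.16 to 0.060 with 1 library left out. Cdc45 was -0.11 with covariates, -0.056 with much colon transcript and -0.057 to 0.17 with 1 library left out. Pola1 was 0.11 with covariates and 0.024 with little colon transcript, and Pold1 was 0.027 there. Pole was 0.0087 with median-of-ratios factors, 0.11 with little colon transcript and -0.12 to 0.072 with 1 library left out. Lig1 was 0.042 with covariates, 0.056 with much colon transcript and -0.16 to 0.0048 with 1 library left out. With 1 library left out, Cdt1 ran from -0.11 to 0.15, Fen1 from -0.012 to 0.19 and Uhrf1 from -0.045 to 0.17. With 3 mice a group, differences within the intervals given could not be told from 0. Each fit on 1 side of the colon division left 1 mouse in a group, assumed to vary like the others, and both count among the 18. G2 and mitosis genes lower (12) were 6 with the block (25%, beside 4.4% of all genes tested).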

Other observations

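Ratios between members within a library do not depend on how the libraries are scaled, and several pairs were set out after their values were seen, as a description without a test. Cyclin E2 over cyclin E1 transcript was 0.211, 0.184 and 0.207 in cytarabine 1 to 3 and 0.165, 0.135 and 0.157 in control 1 to 3. Cyclin E1 over cyclin A2 (Ccna2, the cyclin of S phase and G2) was 0.618, 0.700 and 0.585 with cytarabine and 0.404, 0.373 and 0.394 in controls. All treated mice lay above all controls in both ratios, cytarabine 1 included.

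Within complexes the same was seen for some pairs. Orc6 over Orc2 was 0.959, 1.26 and 1.02 with cytarabine and 0.641, 0.753 and 0.648 in controls, and Rfc3 over Rfc5 was 2.53, 2.39 and 2.63 with cytarabine and 1.85, 1.99 and 1.88 in controls. Mcm4 over Mcm6 was 0.685, 0.654 and 0.647 with cytarabine and 0.563, 0.525 and 0.560 in controls. Mcm5 over Mcm6 was 0.439, 0.433 and 0.405 with cytarabine and 0.420, 0.438 and 0.437 in controls, which overlap. Cdc6 over Mcm5 was 0.310, 0.322 and 0.330 with cytarabine and 0.253, 0.228 and 0.255 in controls. Gmnn over Cdt1 was 1.19, 1.18 and 1.35 with cytarabine and 1.21, 1.01 and 1.02 in controls, where control 1 lay within the treated range. A ratio shows unequal change of a pair and not which of the pair changed.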
